A study of Mus musculus with 3 samples.

Results

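STAT proteins are latent transcription factors of the cytoplasm. The 6 genes described here, Stat2, Stat3, Stat4, Stat5a, Stat5b and Stat6, were chosen by their symbols in the deposited transcript identifiers. That rule used no measured value, but earlier results of these data were known when the members were chosen. They are 6 of the 55536 annotated genes in the tables and 6 of the 22028 that code for protein, and 41 annotated transcripts belong to them. Total RNA with ribosomal RNA removed had been sequenced from the chromatin fraction of C57BL/6J mouse macrophages, which had been grown in culture from bone marrow. All 3 libraries came from 1 condition, in which 100 ng/ml Lipid A was given for 12 h, washed away for 12 h, and given again at 100 ng/ml for 10 min. Lipid A is the lipid anchor of bacterial lipopolysaccharide and acts through TLR4. The replicates have separate biosamples and 1 donor identifier in the labels, and the RNA input was 1 µg in replicate 1, 250 ng in replicate 2 and 500 ng in replicate 3. Age and sex were not recorded, and libraries without Lipid A or with 1 dose of it were not used here, so no value below is a response to Lipid A.

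A cytokine receptor carries Janus kinases (JAKs) on its inner tail, and these phosphorylate the STATs that dock there. The STATs then pair through their SH2 domains, enter the nucleus and bind DNA. Type I interferon acts through STAT2 with IRF9 on the interferon-stimulated response element, IL-6 and IL-10 act through STAT3, IL-12 through STAT4, GM-CSF and IL-3 through STAT5A and STAT5B, and IL-4 and IL-13 through STAT6. Macrophages stimulated through TLR4 make type I interferon and IL-10 themselves. Chromatin-bound RNA is enriched in transcripts that are being made or have not yet been released, so these values describe nuclear RNA of the STAT genes and not protein or phosphorylation.

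Expected counts on genes summed to between 13538605 and 19949204 per library, with the lowest total in replicate 1. Of the 8 macrophage markers examined, 8 were at a TPM (a level per transcript length, scaled to a fixed library total) of 1 or more in every library, with Adgre1, the F4/80 antigen, at 303 ± 76.5 TPM (SD, n = 3 libraries, as for all errors below). Of the markers of other cells, 0 of 6 for T cells, 0 of 5 for NK cells, 0 of 5 for B cells, 0 of 6 for neutrophils, 0 of 4 for fibroblasts and 0 of 3 for erythroid cells reached that level. For dendritic cells it was 1 of 4, Zbtb46, at 1.13 ± 0.147 TPM. Genes of the T cell list summed to between 0.05 and 0.37 TPM per library and those of the NK cell list to at most 0.03 TPM. The second set of tables, made straight from the reads without an alignment, placed 2 of the 6 T cell genes above 1 TPM in every library, Cd3d at 13.7 ± 1.96 and Cd8a at 2.55 ± 0.499 TPM, while Cd3e was at 0.0751 ± 0.0234 TPM there. They also placed 2 of the 4 dendritic cell genes above it, Zbtb46 at 2.18 ± 0.363 and Siglech at 1.87 ± 0.200 TPM, and 0 genes of the NK cell, B cell, neutrophil, fibroblast and erythroid lists.

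The family spanned about 3 orders of magnitude. Stat2 stood far above the others, Stat6 and Stat3 formed a middle pair, Stat5b and Stat5a lay lower, and Stat4 was close to the floor. Of the 6 genes, 5 had at least 1 TPM in all 3 libraries, all but Stat4, and 45.6% of protein-coding genes passed the same rule. The median of log2(TPM + 0.1) over the 6 genes was 4.92 ± 0.16, against -0.43 ± 0.13 over all protein-coding genes and 3.60 ± 0.11 over those at 1 TPM or more. Stat2 made up 79.6% ± 3.58 of the summed TPM of the 6 genes, Stat6 8.88% ± 2.14 and Stat3 8.12% ± 2.19.

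**Figure D1:**
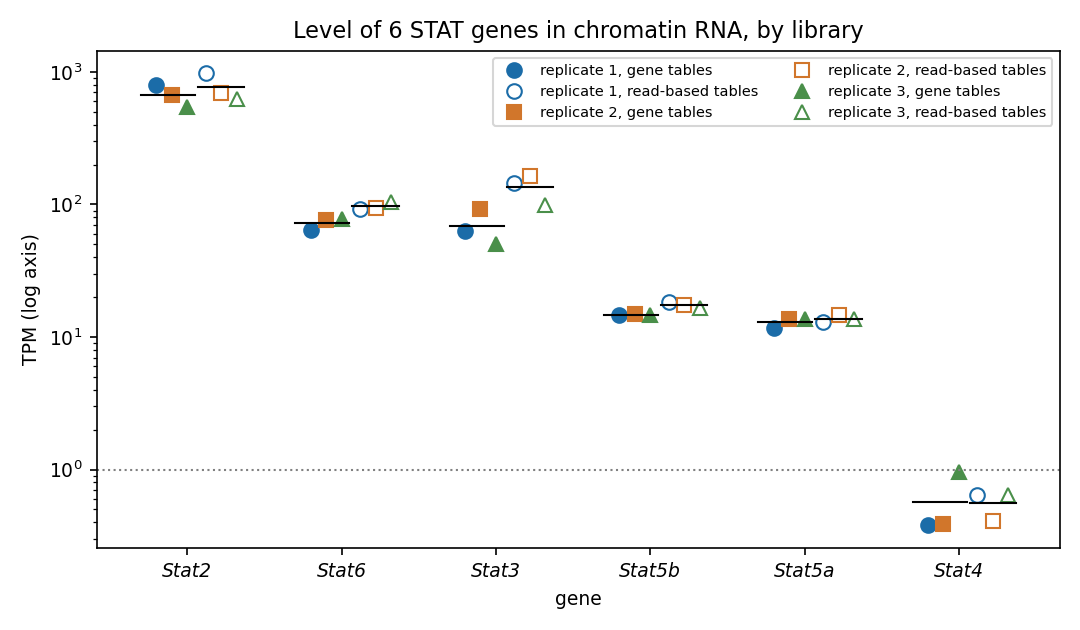
TPM on a log axis of the 6 STAT genes in each library, with filled symbols for the gene tables, open symbols for the tables made straight from reads, black bars for means and a dotted line at 1 TPM. Stat2 lies above 500 TPM in every library, Stat4 below 1 TPM, and Stat3 is the gene whose 2 sets of values are farthest apart among the 5 genes above the line.

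Stat2 is the interferon-dedicated member, which enters the nucleus as part of a complex with IRF9. Its gene lies at chr10:128270559-128292849 (mm10) on the plus strand. It was measured at 791, 675 and 548 TPM in replicates 1, 2 and 3, from 21483, 21960 and 18570 expected counts. The mean of 671 ± 122 TPM ranked 21st among protein-coding genes by mean TPM. That rank includes 401 ± 74.1 TPM on transcripts annotated as retaining an intron, described below, while coding transcripts held 270 ± 49.5 TPM. The posterior mean that the authors deposited was lower, at 621 ± 111 TPM, and the TPM of Stat2 lay outside its own deposited interval in 3 of 3 libraries, unlike that of the other members. Replicate 1 was the highest library and replicate 3 the lowest, a pattern shown by 20.5% of the 10050 protein-coding genes at 1 TPM or more. The neighbouring genes were low. Apof, an apolipoprotein gene that ends 405 bp before Stat2 on the same strand, was at 0.380 ± 0.0436 TPM, and Il23a, a cytokine subunit gene 3289 bp beyond it on the other strand, was at 1.41 ± 0.615 TPM.

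The sequence around the start of Stat2 is shown because Stat2 is itself known as an interferon-induced gene, and such genes often carry an interferon-stimulated response element there. RefSeq (GRCm38.p6) places a start site whose window, from 250 bases before to 50 after, is chr10:128270248-128270547 on the plus strand. The 3 annotated transcripts that begin near it start 61 or 78 bases further on. Capitals mark 2 motif matches.
Stat2: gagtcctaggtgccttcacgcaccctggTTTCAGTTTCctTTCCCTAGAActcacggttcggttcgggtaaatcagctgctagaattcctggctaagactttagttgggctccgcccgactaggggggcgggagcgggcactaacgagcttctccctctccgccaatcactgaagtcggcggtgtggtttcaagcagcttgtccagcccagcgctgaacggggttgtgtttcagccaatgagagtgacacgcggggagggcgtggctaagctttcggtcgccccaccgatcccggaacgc
The first match, beginning at position -222 from the start site, is the core of the interferon-stimulated response element, GAAANNGAAA, read on the opposite strand. That core was sought on both strands and occurs in 3.44% of 32851 RefSeq windows of the same length. The second, at position -210, is a spaced palindrome, TTCNNNNGAA, of the kind STAT6 is known to prefer, and 6.95% of windows hold it. The 2 matches do not overlap. The palindrome with the shorter spacer, TTCNNNGAA, which most STAT dimers bind, is in 8.30% of windows and in 0 of the 9 windows of the 6 genes. These are matches of letters only, and no binding was measured.

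Stat6, the mediator of IL-4 and IL-13 signals, lies on the same chromosome, 609601 bp from Stat2, at chr10:127642986-127660957 on the plus strand. Its level was 64.4, 76.1 and 78.2 TPM in replicates 1, 2 and 3, a mean of 72.9 ± 7.41 TPM (rank 815). Replicate 1 was the lowest library for Stat6 and the highest for Stat2. The last 40 bp of Stat6 overlap the end of Nab2, a corepressor gene on the other strand at 8.95 ± 1.67 TPM. They shared 10 stretches of 31 bases, or 0.226% of those of Stat6. The next protein-coding genes on either side were Lrp1, an endocytic receptor gene at 265 ± 19.7 TPM, and Nemp1, a nuclear envelope protein gene at 3.97 ± 0.268 TPM.

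Stat3, which carries IL-6 and IL-10 signals, lies at chr11:100885098-100939540 on the minus strand. It was at 62.66, 92.83 and 50.02 TPM in replicates 1, 2 and 3, a mean of 68.5 ± 22.0 TPM (rank 889). Replicate 2 was highest, and the coefficient of variation was 32.1%, against a median of 14.5% over protein-coding genes at 1 TPM or more. Stat6 minus Stat3 was 0.13 ± 0.47 on the log2 scale, with Stat6 higher in 2 of 3 libraries, so the 2 genes did not differ beyond their spread. Their order also rested on the quantification, since in the read-based tables Stat6 averaged 96.9 ± 6.00 TPM and Stat3 136 ± 33.5 TPM. The ratio of the read-based to the gene-table level of Stat3 was 2.30, 1.77 and 1.98 in the 3 libraries.

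Stat5b and Stat5a encode closely related proteins that relay GM-CSF and IL-3 signals in myeloid cells. Stat5b lies at chr11:100780731-100850724 on the minus strand and Stat5a 8626 bp away at chr11:100859351-100885169 on the plus strand, in a block of 158810 bp that ends with Stat3. Stat5b was at 14.8, 14.9 and 14.5 TPM in replicates 1, 2 and 3, and the mean was 14.7 ± 0.191 TPM (rank 4380). Stat5a was at 11.7, 13.6 and 13.6 TPM in the same libraries, a mean of 12.9 ± 1.09 TPM (rank 4798). The ranges of the 2 genes did not overlap, but the intervals that the authors deposited with each TPM overlapped in 3 of 3 libraries. Stat5b minus Stat5a was 0.19 ± 0.13 on the log2 scale and positive in 3 of 3 libraries.

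Reads from this pair are partly interchangeable. Of the stretches of 31 bases in annotated transcripts, 836 were common to both genes, which is 11.5% of those of Stat5a and 15.1% of those of Stat5b. Stat5a held 44.2%, 47.6% and 48.3% of the TPM of the pair in replicates 1, 2 and 3. Its mean share was 46.7% ± 2.22, and 44.1% ± 2.30 in the read-based tables. The 3′ ends of Stat5a and Stat3 run into each other over 72 bp on opposite strands, and 42 stretches of 31 bases were shared there. Cavin1, a caveolar coat gene and the next gene beyond Stat3, was at 0.0233 ± 0.0252 TPM, and Ghdc, the next protein-coding gene beyond Stat5b, was at 13.7 ± 3.58 TPM.

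Each of these paralogs has 2 RefSeq start sites, and the downstream ones resemble each other. The windows at chr11:100860234-100860533 (plus strand, Stat5a) and chr11:100822521-100822820 (minus strand, Stat5b) share a stretch of 65 bases without gaps, of which 58 are identical. The stretch is shown because transcripts that begin there have levels of their own in the tables. It covers chr11:100860418-100860482 in Stat5a and chr11:100822563-100822627 in Stat5b, and capitals mark the 7 bases that differ.
Stat5a: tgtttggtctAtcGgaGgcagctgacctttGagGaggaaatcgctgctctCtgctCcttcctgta
Stat5b: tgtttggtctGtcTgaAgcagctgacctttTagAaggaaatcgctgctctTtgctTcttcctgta
The identity is 89.2%, and the stretch ends at position -2 from the Stat5a start site and runs from position -57 to 8 around that of Stat5b. From the Stat5a site start Stat5a-203, a coding transcript at 1.68, 1.77 and 3.11 TPM in replicates 1, 2 and 3, and Stat5a-207, a processed transcript at 2.14, 2.37 and 2.35 TPM. Stat5b-202, a coding transcript that begins 42 bases after the Stat5b site, was at 4.82, 4.15 and 5.18 TPM. At the other RefSeq start of Stat5a, Stat5a-202 was at 4.84, 7.02 and 4.13 TPM, and Stat5b-201, which begins 143 bases before the other site of Stat5b by the annotation, was at 6.33, 7.81 and 6.44 TPM. Stat5a-202 was above Stat5a-203, and Stat5b-201 above Stat5b-202, in 3 of 3 libraries of the alignment-based tables. In the read-based tables, however, Stat5b-202 averaged 7.31 ± 0.443 TPM and Stat5b-201 3.84 ± 0.502 TPM. Another coding transcript that begins near the downstream Stat5a site, Stat5a-206, was at 1.22, 0.76 and 2.73 TPM in replicates 1, 2 and 3. The comparison is thus of single transcripts and does not rank the start sites.

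Stat4, which transmits IL-12 signals and is known chiefly from T and NK cells, was the lowest member. It lies at chr1:51987148-52107189 on the plus strand and was at 0.380, 0.390 and 0.950 TPM in replicates 1, 2 and 3. These values rested on 9.31, 10.5 and 27.0 expected counts, and replicate 3 was the only library near 1 TPM. The mean was 0.573 ± 0.326 TPM (rank 11205). A noncoding gene on the same strand, Gm28177, overlaps Stat4 over 29929 bp and holds 23.7% of the 31-base stretches of Stat4. Gm28177 was at 0.187 ± 0.0777 TPM from 9.29 expected counts on average, so the division of a few reads between the 2 genes bears on the level of Stat4. Of the 11 T cell and NK cell markers, 6 were at 0 in every gene table, Cd3e, Cd3g, Ncr1, Klrb1c, Gzmb and Eomes, and 3 of them, Ncr1, Klrb1c and Gzmb, in the read-based tables too. The other 5, Cd8a, Cd3d, Lck, Cd2 and Prf1, were between 0 and 0.15 TPM in the gene tables, where Cd8a was the highest on average, and in the read-based tables Cd3d and Cd8a exceeded 1 TPM in every library. The part of other cells in the Stat4 level was not tested, and fewer cells of a type cannot be told apart from less RNA per cell.

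Nearly all coding TPM of Stat4 lay on Stat4-201, at 0.293 ± 0.188 TPM, which begins 3 bases after the second RefSeq start of the gene. Its window, chr1:52007990-52008289 on the plus strand, is shown because it is the only other window of the 6 genes with the interferon-element core, marked by capitals at position -97.
Stat4: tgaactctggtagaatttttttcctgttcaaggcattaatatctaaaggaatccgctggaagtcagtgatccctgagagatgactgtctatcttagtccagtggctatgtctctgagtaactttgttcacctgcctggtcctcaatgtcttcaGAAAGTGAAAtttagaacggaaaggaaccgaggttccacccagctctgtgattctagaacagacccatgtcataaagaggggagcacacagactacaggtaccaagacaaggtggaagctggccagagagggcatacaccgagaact
The core thus stands in windows of the highest and the lowest member. Stat4-202, which begins at the first RefSeq start, was at 0.00667 ± 0.0115 TPM, with 0 in 2 of 3 libraries.

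Differences were taken within each library between members next to each other in level. Stat2 minus Stat6 was 3.62, 3.15 and 2.81 in replicates 1, 2 and 3 on the log2(TPM + 0.1) scale, or 3.19 ± 0.41, which is 9.13-fold. Stat3 minus Stat5b was 2.08, 2.63 and 1.78, or 2.16 ± 0.43. Stat5a minus Stat4 was 4.62, 4.80 and 3.70, or 4.37 ± 0.59. These 3 steps exceeded their SD several times over and had the same sign in every library, which places Stat2 above the middle pair, the middle pair above the Stat5 genes, and Stat4 below all. The exact two-sided sign-flip test cannot give a p below 0.25 with 3 libraries. It gave 0.25 for 14 of the 15 pairs (0.268 after Benjamini-Hochberg adjustment over the 15) and 0.75 for Stat6 minus Stat3, so none of the 15 could pass a threshold of 0.05.

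The libraries were also compared gene by gene, since they differ in RNA input. In a goodness-of-fit test in edgeR across all genes with enough counts, 166 of 14789 genes varied more than genes of their level (1.12%, adjusted p below 0.05). Of the STAT genes, 0 of 5 tested were called, and Stat4 did not pass the filter on low counts. With 5 genes tested, a count of 0 cannot be told apart from the share of 1.12%. The smallest unadjusted edgeR p of the 5 was 0.249, for Stat2, and each adjusted p was 1.00. Dispersion outliers in DESeq2 were 115 of 24516 genes (0.469%) and included 0 of the 6. Without replicate 1 the unadjusted p of Stat3 was 0.0289 and its edgeR adjusted p 0.782. Any effect of input cannot be told apart from other differences between libraries, since each amount had 1 library.

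Much of the TPM of the upper members, though a smaller part of their counts, lay on transcripts annotated as retaining an intron. Such transcripts keep intron sequence between exons and have no annotated protein. Whether the reads came from them or from RNA not yet spliced was not tested. They took 56.9% ± 2.27 of the summed TPM of the 6 genes, and 20 of the 41 transcripts are of this class. The share depends on the quantity, since these transcripts are mostly short and TPM is per length. It was 15.7% ± 0.568 of expected counts, and 66.2% ± 1.22 of TPM in the read-based tables.

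**Figure D2:**
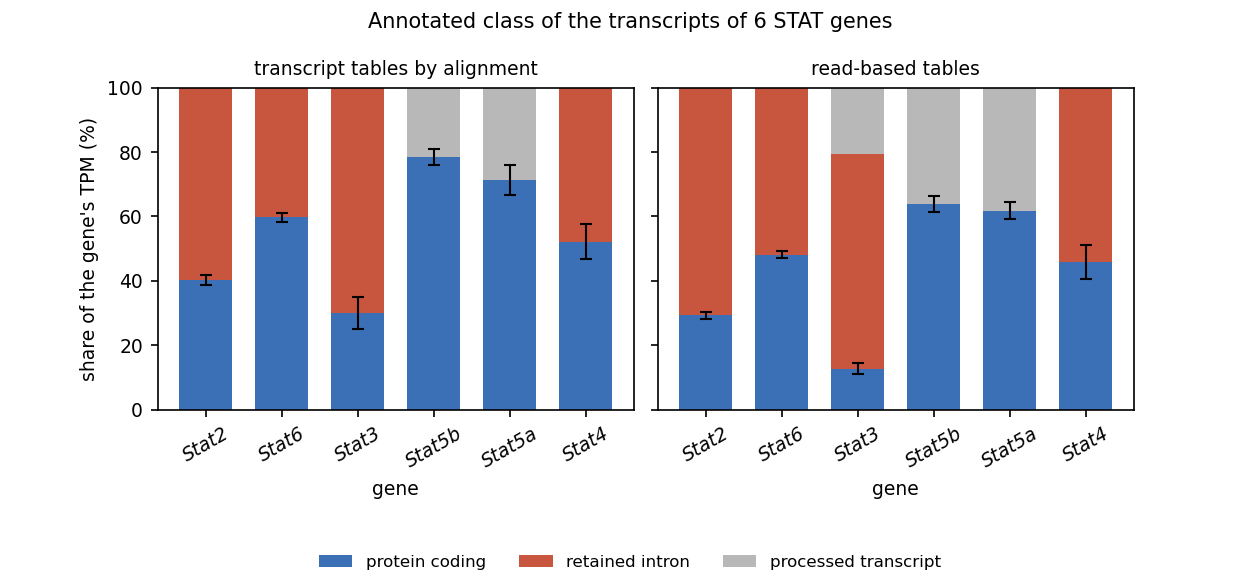
Share of each gene's TPM by annotated transcript class, as the mean of 3 libraries, in the transcript tables made by alignment (left) and in the read-based tables (right), with error bars for the SD of the protein-coding share. Retained-intron transcripts make up most of Stat2 and Stat3 in both panels, and Stat5b and Stat5a have none annotated.

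In Stat3 these transcripts held 68.5%, 75.7% and 66.0% of TPM in replicates 1, 2 and 3, a mean of 70.1% ± 5.03. The share was 59.7% ± 1.62 in Stat2, 47.8% ± 5.46 in Stat4 and 40.3% ± 1.41 in Stat6. Across the 6343 protein-coding genes that have such a transcript and at least 1 TPM, the median share was 45.4%, with quartiles at 29.6% and 61.0%. Stat3 stood above 86.5% of those genes, Stat2 above 73.2% and Stat6 above 41.9%, so Stat6 lay near the middle. The low counts of Stat4 make its share imprecise.

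Counting coding transcripts alone changed the distances between the members. Stat2 had 324, 259 and 227 TPM on coding transcripts in replicates 1, 2 and 3, or 270 ± 49.5 TPM. Stat6 had 39.5, 44.7 and 46.2 TPM and Stat3 19.7, 22.6 and 17.0 TPM, ranges that no longer overlapped. Stat5b stood at 11.6 ± 0.407, Stat5a at 9.26 ± 1.33 and Stat4 at 0.300 ± 0.182 TPM. On this measure Stat6 minus Stat3 was 1.14 ± 0.26 and Stat3 minus Stat5b 0.76 ± 0.19 on the log2 scale.

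The 6 retained-intron transcripts of Stat2 are laid out along the gene. Stat2-206, which covers the first 6851 bp, was at 169, 126 and 94.2 TPM in replicates 1, 2 and 3. Stat2-204, from 7299 to 11043 bp, averaged 74.5 ± 11.6 TPM, and Stat2-207, from 11089 to 12734 bp, 67.9 ± 23.8 TPM. Stat2-203, from 12258 to 13401 bp, was at 54.6 ± 12.1 TPM, though the read-based tables gave it 146 ± 24.98 TPM. Stat2-208 and Stat2-205, which reach to 20153 and 21238 bp, were at 52.0 ± 3.36 and 22.1 ± 7.68 TPM. In the alignment-based tables the transcript at the start of the gene was the highest in every library and Stat2-205 the lowest, whereas in the read-based means Stat2-203 was the highest.

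**Figure D3:**
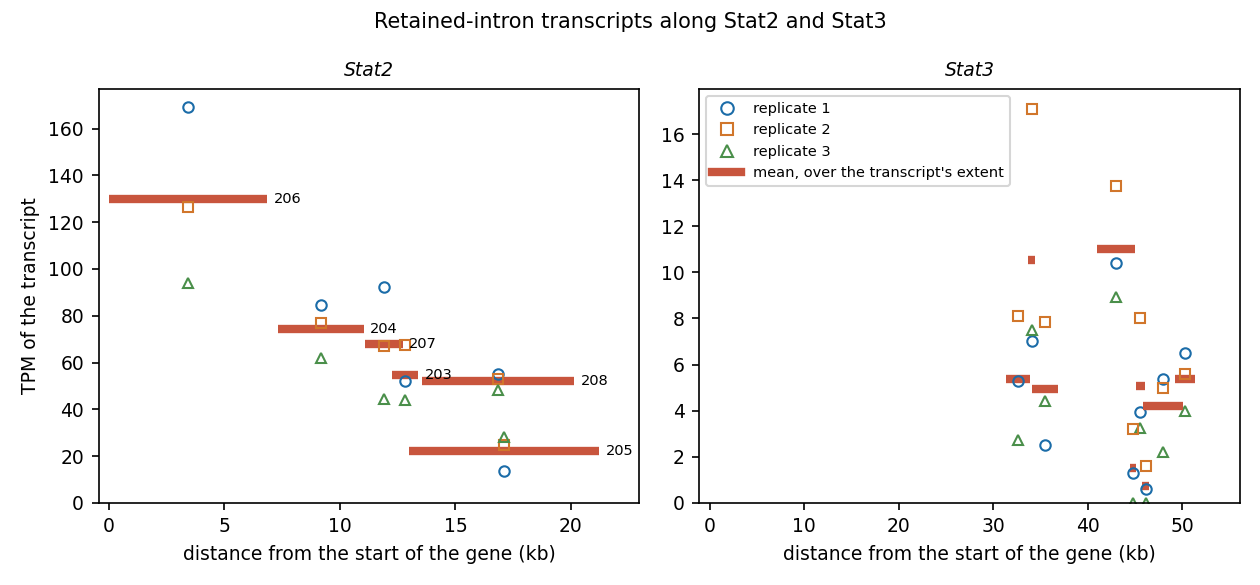
TPM of each retained-intron transcript of Stat2 (left) and Stat3 (right) against distance from the start of the gene in kb, with bars for the mean over the stretch a transcript covers and symbols at its middle for the 3 libraries. In Stat2 the transcript at the start of the gene, 206, is highest at 130 TPM on average, and in Stat3 all 9 lie more than 31 kb from the start.

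The 9 retained-intron transcripts of Stat3 begin between 31316 and 49228 bp from the start of the gene. In the alignment-based tables the highest were Stat3-208 at 11.0 ± 2.48 TPM and Stat3-211 at 10.5 ± 5.69 TPM, whereas in the read-based tables Stat3-204 was highest at 24.4 ± 8.08 TPM. Stat3-209 and Stat3-213 were at 0 in replicate 3 of the alignment-based tables and at 1.99 and 9.05 TPM in replicate 3 of the read-based ones. Another noncoding transcript, Stat3-214, was at 0 TPM in all 3 alignment-based tables and at 29.3, 32.2 and 21.5 TPM in the read-based ones, where it made up 20.5% ± 1.07 of Stat3.

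The coding transcripts of Stat3 differ in the length of the protein they encode. Of the coding TPM, 44.2% ± 8.15 lay on Stat3-203, which encodes 770 residues, 42.2% ± 5.33 on Stat3-202, which encodes 722, and 13.6% ± 6.95 on Stat3-201, which encodes 769. The shorter product has the length of the beta form, which lacks the transactivation domain of the alpha form. In the read-based tables the shares were 53.1% ± 2.97, 30.3% ± 3.99 and 16.1% ± 2.66. The longer forms together thus exceeded the shorter one in both sets. Stat2 had almost all of its coding TPM, 99.6% ± 0.0711, on Stat2-201, which encodes 922 residues. Stat5a divided between products of 793 residues (59.9% ± 15.8), 797 residues (23.4% ± 6.36) and an annotated fragment of 125 residues (16.7% ± 9.52), and both coding transcripts of Stat5b encode the same 786 residues.

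The kinases and receptors above the STATs were well represented. All 4 Janus kinase genes had at least 1 TPM in every library: Tyk2, the kinase of the interferon and IL-12 receptors, was at 95.3 ± 15.1 TPM, Jak1 at 35.7 ± 1.39, Jak2 at 33.9 ± 12.3 and Jak3 at 32.4 ± 8.01 TPM. Of 18 receptor genes, 16 were at 1 TPM or more in every library, as were 45.6% of all protein-coding genes. The highest were Csf2ra, the GM-CSF receptor alpha chain, at 209 ± 67.0 TPM, Csf3r, the G-CSF receptor, at 98.3 ± 21.2 TPM, and Il10ra, the IL-10 receptor, at 72.0 ± 6.16 TPM. Il27ra was the lowest, at 0.0333 ± 0.0153 TPM. In the read-based tables, 16 of the 18 passed as well, but Csf2rb, the shared beta chain, came second at 148 ± 28.7 TPM, Il27ra was at 1.07 ± 0.189 TPM and Il13ra1 was the lowest at 0.514 ± 0.126 TPM. The median of log2(TPM + 0.1) was 5.23 ± 0.15 over the kinases and 5.22 ± 0.22 over the receptors, against 3.60 ± 0.11 over all protein-coding genes at 1 TPM or more.

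Of 15 partners and inhibitors, 13 were at 1 TPM or more in every library, as were 45.6% of all protein-coding genes. Ptpn6, the phosphatase SHP-1, was highest at 112 ± 25.1 TPM, Usp18, an inhibitor of interferon receptor signalling, was at 79.0 ± 27.9 TPM and Ptpn1, a phosphatase that acts on JAKs, at 42.8 ± 4.43 TPM. Socs2, a suppressor of cytokine signalling, was lowest at 0.257 ± 0.0416 TPM in the gene tables but at 2.86 ± 0.416 TPM in the read-based ones, where 14 of the 15 passed and Cish was lowest at 0.522 ± 0.179 TPM. Socs3, the feedback inhibitor of the IL-6 receptor and a STAT3 target, was at 7.94, 8.25 and 3.14 TPM in replicates 1, 2 and 3. It was 1 of 3 listed genes called as varying between libraries (edgeR goodness of fit, adjusted p = 0.0483, just under 0.05), with replicate 3 below the others. Of all genes tested, 1.12% were called.

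Target genes known for each STAT were listed separately, and their levels differed widely between lists. The lists were chosen with earlier results of these data known, so this contrast is a description and not an independent test. Values are from the gene tables unless the read-based tables are named. Of all protein-coding genes, 45.6% were at 1 TPM or more in every library of the gene tables. By the same rule 56.2% passed in the read-based tables. All 16 interferon targets of STAT2 were at 1 TPM or more, and their median of log2(TPM + 0.1) was 7.58 ± 0.64. Mx1, an antiviral GTPase, was at 2940, 1737 and 1253 TPM in replicates 1, 2 and 3. Rsad2, the antiviral enzyme viperin, averaged 566 ± 240 and Oasl2, of the oligoadenylate synthetase family, 527 ± 74.8 TPM, and Isg15, a ubiquitin-like modifier, was lowest at 55.2 ± 15.1 TPM. Mx2 and Cmpk2, a mitochondrial nucleotide kinase gene, were called as varying (edgeR goodness of fit, adjusted p = 0.0332 and 0.000778). Their levels were 312, 183 and 128 TPM for Mx2 and 348, 167 and 128 TPM for Cmpk2. In this list 2 of 16 genes were thus called, beside 1.12% of all genes tested. Like Stat2, 13 of the 16 were highest in replicate 1 and lowest in replicate 3, as were 20.5% of protein-coding genes at 1 TPM or more, of which 41.6% were lowest in replicate 3. The other 3 (Isg15, Oas1a and Bst2, the last 2 named after their values were seen) were lowest in replicate 3 too. Any part of RNA input in this was not tested.

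**Figure D4:**
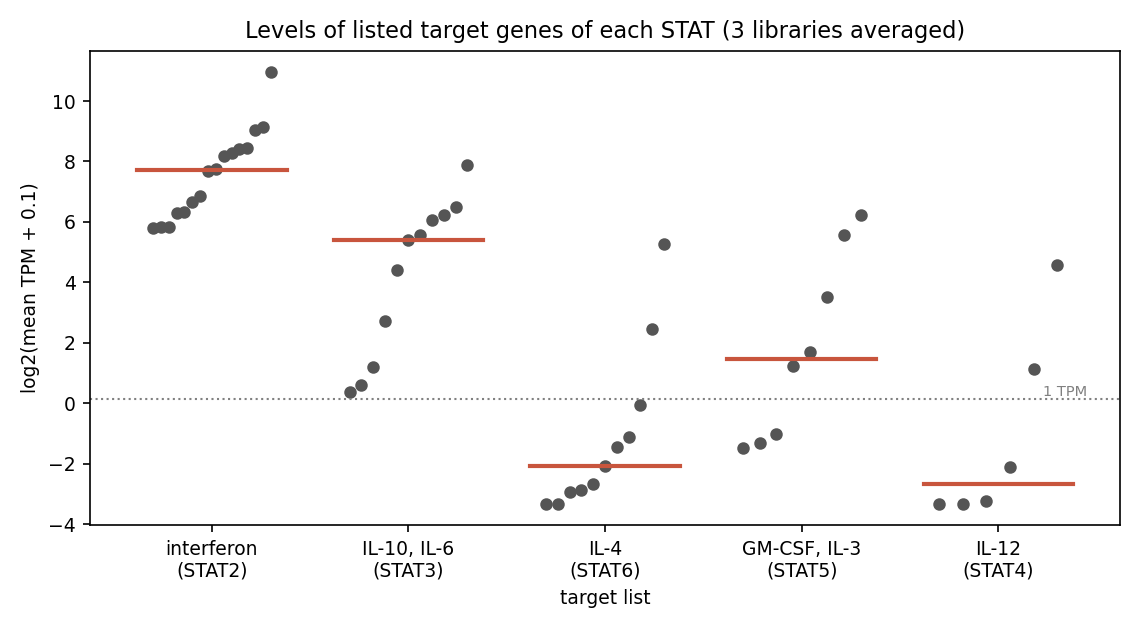
Level of each listed target gene as log2 of mean TPM plus 0.1, by the list that holds it, with a bar at the median of each list and a dotted line at 1 TPM. Pim1 and Bcl2l1 are in both the STAT3 and the STAT5 list and are drawn in each. In these gene tables all 16 STAT2 and all 11 STAT3 targets lie above the line. So do 5 of 8 STAT5, 2 of 11 STAT6 and 2 of 6 STAT4 targets. In the read-based tables, not drawn, the last 3 counts are 6, 4 and 4. Of all protein-coding genes, 45.6% were at 1 TPM or more in every library, and 56.2% in the read-based tables. The lists were chosen with earlier results of these data known.

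Of 11 STAT3 targets, 11 were at 1 TPM or more, with a median of log2(TPM + 0.1) of 5.20 ± 0.29. Mcl1, an anti-apoptotic gene, was at 238 ± 30.9 TPM, Sbno2, a corepressor induced by IL-10, at 90.4 ± 17.8 TPM and Pim1, a kinase gene, at 75.5 ± 8.37 TPM. Myc was lowest at 1.20 ± 0.186 TPM, and in the read-based tables, where 10 of the 11 passed, it was under 1 TPM in at least 1 library. Il4ra, the IL-4 receptor, is in this list and the receptor list and was the second nearest gene to Stat3 over the 3 libraries. Its level was 54.3, 92.3 and 51.9 TPM, with replicate 2 highest as for Stat3. That likeness is no separate result, because nearness was measured on these same values.

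The IL-4 targets of STAT6 were mostly low in both sets of tables, while Stat6 itself was at 72.9 TPM. Of 11, 2 were at 1 TPM or more, the mannose receptor gene Mrc1 at 38.5 ± 8.39 TPM and Pparg, a nuclear receptor gene, at 5.42 ± 0.816 TPM. Arg1, arginase 1, was at 0.873 ± 0.591 TPM, and the chemokine genes Ccl17 and Ccl24 were listed at 0 in every library. The read-based tables had 4 of the 11 at that level, with Pparg at 18.5 ± 4.25, Ccl24 at 6.48 ± 1.54 and Arg1 at 2.67 ± 1.20 TPM, and Ccl17 at 0.188 ± 0.226 TPM. The presence of Ccl24 RNA was therefore not settled by these files. The IL-12 targets of STAT4 had 2 of 6 at that level, Furin, a protease gene, at 23.5 ± 4.38 TPM and Il12rb2, an IL-12 receptor chain, at 2.08 ± 0.135 TPM, while Il18rap, an IL-18 receptor chain, was at 0.130 ± 0.123 TPM and Ifng and Tbx21 were at 0. In the read-based tables, 4 of 6 passed, since Il18rap was at 8.10 ± 1.10 and Il18r1, its partner chain, at 4.81 ± 0.0603 TPM, and Ifng and Tbx21 were at 0 there too. For genes at 0, a count of 3 would be 0.222, 0.150 and 0.165 CPM (counts scaled to library size) in replicates 1, 2 and 3, a limit for counting error only. Of 8 targets of STAT5, 5 were at 1 TPM or more, led by Pim1, Bcl2l1, an anti-apoptotic gene, at 47.6 ± 5.42 TPM and Bcl6, a repressor gene, at 11.2 ± 2.58 TPM, and Socs2 was again the lowest. In the read-based tables it was 6 of 8, with Socs2 above 1 TPM. Pim1 and Bcl2l1 are in the STAT3 list as well. For lists this small, the STAT4 and STAT5 counts lie near the share of all protein-coding genes, 45.6%, or 56.2% in the read-based tables. Many of these genes answer to other factors as well, so their levels are no measure of the activity of a STAT.

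The genes nearest to each member were found among protein-coding nuclear genes by the root mean square distance of log2(TPM + 0.1) over the 3 libraries. Stat2 was nearest to Parp14, an interferon-induced ADP-ribosyltransferase gene, at a distance of 0.0882, with 794, 613 and 524 TPM in replicates 1, 2 and 3, and then to Sat1, a polyamine acetyltransferase gene, at 0.145. Stat6 was nearest to Cerk (0.0304) and Esyt1 (0.0356), and Stat3 to Pou2f2, a POU transcription factor gene, at 0.0764, followed by Il4ra at 0.124. Stat5b was nearest to Aldh3b1 (0.0259) and Tmem184c (0.0271), Stat5a to Rad54l2 (0.00933) and Zfp317 (0.0166), and Stat4 to Cdk5r1 (0.0671) and Dock9 (0.113). A small distance over 3 libraries of 1 condition means a like level in each, and many genes lie close together at the lower levels.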

How the data were processed

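Values came from the tables that the authors deposited for 3 libraries. Per the file headers and accompanying notes, the gene and transcript tables hold expected counts and TPM made by aligning reads to the mm10 transcriptome of GENCODE M21, in the columns RSEM writes. They also hold a posterior mean TPM and interval bounds, treated as a score because the deposited files do not state the interval's level. A second set of deposited transcript tables, in the columns kallisto writes, holds estimated counts and TPM made from the reads and was summed per gene (the read-based tables). No source used here gives the tool versions or the handling of strand, so reads of overlapping genes on opposite strands may be mixed. TPM sums to a fixed total over all entries. Protein-coding genes held 30.0%, 30.9% and 27.3% of it in replicates 1, 2 and 3. Scaled to protein-coding genes alone, Stat2 averaged 2276 ± 328 TPM in place of 671 ± 122.

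The members and lists were chosen with earlier results of these data known. Genes named are the members, the 3 highest and the lowest of each list, list genes called by the test, overlapping and neighbouring genes, and the 2 nearest in level. Values of some flanking genes are not reported here. Expected counts were rounded and fitted in edgeR 4.0.16 (R 4.3.3; filterByExpr, TMM, intercept-only model, trended dispersion). Deviances were referred to chi-square and adjusted by Benjamini-Hochberg over all genes tested. This step was run on counts simulated from the fitted model itself, which cannot show whether that model holds for these libraries. The p-values measure the spread between these 3 libraries. The alternatives were dispersion outliers and size factors of DESeq2 1.42.0, no low-count filter, read-based tables, other pseudocounts and scalings, and leaving out each replicate. Promoter windows came from RefSeq on GRCm38.p6, where 6 of 6 symbols matched in 9 windows. Entries outside genes, which held between 0.283% and 1.39% of counts, were left out. Other work used Python 3.11.15, pandas 2.3.3 and scipy 1.17.1.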

Additional observations from a re-analysis of the deposited data

How the results depend on the processing

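Stat6 and Stat3 changed order with the tables used. Stat6 minus Stat3 was 0.13 on the log2 scale, -0.46 in the read-based tables, 1.14 on coding transcripts and between -0.12 and 0.34 when 1 replicate was left out, with the negative value without replicate 3. Stat2 minus Stat6 (3.19) was 2.62 on coding transcripts and between 2.98 and 3.38 without 1 replicate. Stat3 minus Stat5b (2.16) was 2.92 in the read-based tables, 0.76 on coding transcripts, 1.13 in CPM without length scaling, and between 1.93 and 2.35 without 1 replicate. Stat5b minus Stat5a (0.19) was 0.34, 0.33 and 0.67 in the same 3 settings and between 0.12 and 0.24 without 1 replicate. Stat5a minus Stat4 (4.37) was 3.16 with a pseudocount of 1, 5.17 without length scaling and between 4.16 and 4.71 without 1 replicate. The median level of the members exceeded that of protein-coding genes by 5.35 on the log2 scale, and by 4.26 with a pseudocount of 1, 4.08 in the read-based tables, 1.43 against genes with a mean of at least 1 TPM and 6.20 without length scaling; it lay between 5.29 and 5.42 without 1 replicate. The retained-intron share of 56.9% was 66.2% in the read-based tables and 15.7% of expected counts, and between 55.7% and 57.9% without 1 replicate. The Stat5a share of 46.7% was 44.1% in the read-based tables and 38.6% of expected counts, and between 45.9% and 48.0% without 1 replicate. The count of varying genes, 166, was 273 in the read-based tables and between 56 and 76 without 1 replicate, and 0 members were called in every setting. The causes were not tested, apart from length scaling, where the transcripts' lengths enter by construction. Counts of list genes in the read-based tables, an alternative chosen after seeing the data, were 4 of 11 for STAT6 targets and 4 of 6 for STAT4 targets. In 105 of 147 recalculations a value stayed within its SD or a count near its original size, and 0 reversed a value larger than its SD. Leaving out 1 of 3 libraries cannot shift a mean by as much as its SD, so those values had to stay. Counts, levels and shares could not change sign. The sign change of Stat6 minus Stat3 was not counted, because its original size was below its SD. The tally is therefore no measure of robustness. No paired analysis was possible because the 3 libraries form 1 group. Stat4, at 9.31 to 27.0 expected counts, is where depth limits most.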
